A study of Mus musculus with 8 samples.

Results

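Long-read sequencing of chromatin RNA from HL1 cells yielded 5508 intergenic transcript models that had no counterpart among the expressed short-read transcripts. A model is a transcript structure that the assembler StringTie built from aligned reads, and its level is given as TPM, a share of the library's transcripts corrected for transcript length. The models were selected on measured values, the TPM of both long-read libraries and the chromatin short-read levels, by 4 criteria: an assembled rather than a reference identifier, a position on 1 of the 19 autosomes, TPM above 0 in both long-read libraries, and no shared base on either strand with a GENCODE M21 gene or with a short-read entry above 0 in a chromatin library. They made up 2.80% of the 196683 transcripts listed and 10.1% of the 54504 assembled autosomal models above 0 in both libraries. Of the 8061 such models lying outside all GENCODE genes, 68.3% (Wilson 95% interval 67.3% to 69.3%) were missed by short reads, and the other 2553 overlapped a short-read entry. Intervals given for shares cover counting error only.

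HL1 is a mouse atrial cardiomyocyte line derived from the AT-1 tumor lineage, grown here in supplemented Claycomb medium with norepinephrine and with no other treatment. Nuclei were split with urea and detergent into a soluble nucleoplasm fraction and an insoluble chromatin pellet, and each fraction was read as 50 bp stranded short reads in 3 libraries from independent cultures. Chromatin RNA was also read as Nanopore direct cDNA in 2 long-read libraries, after addition of a poly(A) tail to all RNA. Ribosomal RNA was removed with different kits for the short-read and long-read libraries, and replicate 2 of the long reads was basecalled with a higher minimum read quality than replicate 1. The methods describe a later filter that matched replicate 1 to replicate 2 for coverage analyses, and whether the deposited TPM followed it is not given in the sources used here. The titles name 3 short-read libraries as nucleoplasm although another of their labels reads chromatin, and the titles were followed. Of 13 atrial cardiomyocyte markers, 10 could be matched to a short-read entry and all 10 were above 0 in the 3 chromatin libraries. A mean of at least 100 normalized counts was reached by 8 of them, while Nppa had only 10.4 to 26.4 and Sln 18.7 to 85.9. Of the ventricular genes, Irx4 was at 0 and Myl2 had 7.29 to 9.43 normalized counts. All 4 fibroblast markers were above 0, with means from 34.5 for Postn to 109925 for the collagen gene Col1a1. Among the endothelial genes, Kdr had 808 to 1552, Pecam1 had 83.3 to 114 and Cdh5 was at 0. For the blood genes, Cd68 had 52.9 to 150, Ptprc had 0 to 4.07 and Hbb-bs was at 0. The part of such markers in the results was not tested.

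Chromatin-enriched RNA comprises transcripts that stay attached to chromatin, often near the gene or enhancer where they are made, and many of these are noncoding and missing from annotations. Intergenic RNA can also arise where polymerase runs on past the end of a gene, or where it starts in the reverse direction at a promoter. A long read can show such RNA as 1 continuous molecule, whereas short reads must cover it densely enough to be assembled.

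A few of the models reached into the stretch just before an annotated gene start, and sequences of such stretches are printed with the shared bases marked. Among the windows of 250 bases before each RefSeq gene start, 34 windows of 32 genes shared bases with 32 of the models. In 25 of these 34 pairs the model was listed on the strand opposite to the gene. The criteria removed every model that runs on into a GENCODE gene, which can lower the number on the same strand. The part of this in the strand counts was not tested. The 4 windows printed here belong to coding genes, share at least 100 bases with a model and have the models of highest mean TPM, a choice made after the values were seen. Each is given 5′ to 3′ on the strand of the gene (RefSeq, GRCm38.p6), and the capitals mark the bases that the long-read model shares.
Irf2bp1, chr7:19003808-19004057, plus strand: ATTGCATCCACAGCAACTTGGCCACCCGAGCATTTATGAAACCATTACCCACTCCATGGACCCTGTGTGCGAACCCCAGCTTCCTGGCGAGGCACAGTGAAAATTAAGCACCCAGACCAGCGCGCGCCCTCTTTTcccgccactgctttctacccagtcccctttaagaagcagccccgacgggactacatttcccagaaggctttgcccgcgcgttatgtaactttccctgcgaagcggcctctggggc
Itgb5, chr16:33829415-33829664, plus strand: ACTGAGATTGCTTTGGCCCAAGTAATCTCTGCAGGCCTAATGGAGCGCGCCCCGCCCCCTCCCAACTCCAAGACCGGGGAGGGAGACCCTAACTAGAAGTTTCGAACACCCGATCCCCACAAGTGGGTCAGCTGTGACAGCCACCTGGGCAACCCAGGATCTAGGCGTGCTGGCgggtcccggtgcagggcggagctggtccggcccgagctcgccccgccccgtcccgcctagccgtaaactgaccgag
Dcps, chr9:35175988-35176237, minus strand: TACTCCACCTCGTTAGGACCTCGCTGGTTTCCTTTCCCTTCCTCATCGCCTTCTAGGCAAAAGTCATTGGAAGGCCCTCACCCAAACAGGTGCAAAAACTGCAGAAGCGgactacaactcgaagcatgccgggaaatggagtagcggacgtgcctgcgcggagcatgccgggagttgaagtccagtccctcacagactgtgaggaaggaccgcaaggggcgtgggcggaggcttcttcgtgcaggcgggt
Polr3k, chr2:181864110-181864359, plus strand: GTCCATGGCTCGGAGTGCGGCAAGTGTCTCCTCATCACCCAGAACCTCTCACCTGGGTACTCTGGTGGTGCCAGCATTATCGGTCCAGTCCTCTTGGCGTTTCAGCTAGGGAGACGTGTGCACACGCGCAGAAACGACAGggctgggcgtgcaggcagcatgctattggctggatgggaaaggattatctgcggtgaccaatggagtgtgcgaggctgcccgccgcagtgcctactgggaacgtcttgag
In front of Irf2bp1, which encodes a transcriptional corepressor, the model covered 135 bases of the window on the strand of the gene and had 21.2 TPM in replicate 1 and 20.8 TPM in replicate 2. In front of Itgb5, the gene for integrin beta 5, 174 bases were shared by a model on the opposite strand with 2.24 and 9.65 TPM. The model before Dcps, a decapping enzyme gene, shared 109 bases on the opposite strand with 2.16 and 7.84 TPM. The model before Polr3k, a subunit of RNA polymerase III, shared 140 bases on the opposite strand with 4.13 and 5.26 TPM. Only the Irf2bp1 model had nearly the same level in both libraries among these 4, and the other 3 were higher in replicate 2. The 34 windows had a median GC content of 58.2% and a median of 14 CpG dinucleotides, beside 52.4% and 6 over all 31396 autosomal windows in the table.

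The models were mostly of low abundance. Their median was 3.93 TPM in replicate 1 (quartiles 2.11 and 8.27) and 3.49 TPM in replicate 2 (quartiles 2.06 and 7.51). Intergenic models that short reads did cover were barely higher, at 4.48 and 4.02 TPM, and models overlapping a GENCODE gene had medians of 3.74 and 3.60 TPM. Together the missed models held 7.61% of all TPM in replicate 1 and 9.56% in replicate 2, more than the 5.88% and 6.73% held by the covered intergenic models. A mean of 1 to 3 TPM was seen for 2336 models (42.4%), 3 to 10 TPM for 1974 (35.8%) and 100 TPM or more for 153 (2.78%).

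The TPM values allowed the read depth behind them to be estimated. The commonest value above 0 in the table was 2.28808 TPM in replicate 1, shared by 3243 transcripts, and 2.08006 TPM in replicate 2, shared by 5861. Values at 2 times this step, within 4e-05 TPM, were listed for 89 and 87 transcripts, and 1.5 and 3 times the step also recurred, so the step was read as a mean coverage of 1 read over the model. On that scale the median missed model was covered 1.72 fold in replicate 1 and 1.68 fold in replicate 2, and its coverage summed over both libraries was 3.08 fold. In each library 59.2% of the models had at most 2-fold coverage. A value within 2e-05 TPM of 1-fold coverage was listed for 248 models in replicate 1 and 430 in replicate 2. A level near the median therefore rested on very few molecules, whereas 20.0% of the models had a summed coverage above 10 fold.

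TPM above 0 in both libraries was itself a criterion, so values near that limit are given as a description only. The lowest level of any member was 0.000249 TPM in replicate 1 and 0.00286 TPM in replicate 2. Below 0.1 TPM lay 53 models in replicate 1, whose median in replicate 2 was 2.28 TPM, and 48 models in replicate 2, whose median in replicate 1 was 3.71 TPM. Just outside the criterion were 2183 missed intergenic models at 0 in replicate 2 only, with a median of 3.42 TPM in replicate 1. Another 3555 were at 0 in replicate 1 only, with a median of 2.08 TPM in replicate 2, which is the value of 1-fold coverage. Detection in both libraries thus covered 49.0% of the 11246 intergenic models that short reads missed and at least 1 long-read library held. From 1 TPM up it rose with level. Of models whose higher value was 1 to 3 TPM, 24.2% were above 0 in both libraries, against 56.4% at 3 to 10 TPM, 91.2% at 10 to 30 TPM and 199 of 200 at 100 TPM or more. Below 1 TPM, a class of 36 models, it was 52.8%.

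Replicate agreement was moderate and depended on abundance. Across the 5508 models, log10 TPM of both libraries had a Pearson r of 0.575 and a Spearman rho of 0.453, and the SD of the log10 ratio was 0.565. These models share their libraries, depth and a single merged assembly, so they are not independent points. The covered intergenic models had an r of 0.651 and an SD of 0.555, and the models overlapping genes 0.490 and 0.574. Values within 2 fold of each other were found for 44.8% of the missed models, against 52.4% of the covered ones and 50.5% of those at genes. A ratio beyond 10 fold was found for 399 models (7.24%). The SD of the log10 ratio was 0.700 at a mean of 1 to 3 TPM, 0.474 at 3 to 10, 0.378 at 10 to 30, 0.350 at 30 to 100 and 0.243 at 100 TPM or more.

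**Figure D1:**
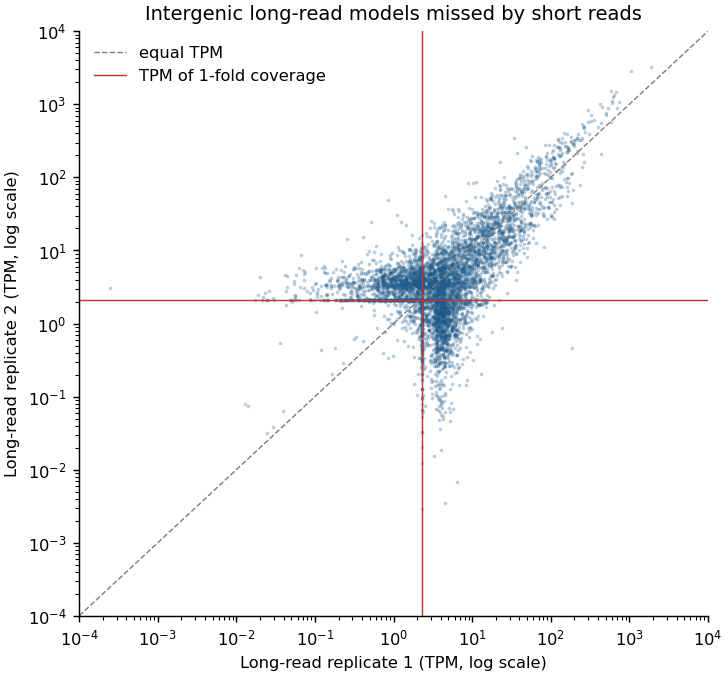
Level of each of the 5508 missed models in long-read replicate 1 (x axis, TPM, log scale) and replicate 2 (y axis, TPM, log scale). Red lines mark the TPM of 1-fold coverage in each library, and 2 arms run along them: 1365 models lie below 1-fold coverage in replicate 1 only and 1210 in replicate 2 only, beside 2739 at 1 fold or more in both.

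The plot of both replicates shows 2 arms. Below 1-fold coverage in replicate 1 only were 1365 models (24.8%), with a median of 3.36 TPM in replicate 2. Below it in replicate 2 only were 1210 models (22.0%), with a median of 4.09 TPM in replicate 1. At 1-fold coverage or more in both libraries stood 2739 models (49.7%). Only 194 models were below 1 fold in both. At the highest levels replicate 2 was higher: of the 153 models at 100 TPM or more, 124 were, with a median log2 ratio of 0.75. At the same level the median was 0.14 for the 100 covered intergenic models, of which 53 were higher in replicate 2, and -0.04 for the 717 models at genes, of which 339 were. Over all missed models 2715 of 5508 were higher in replicate 2. With 1 library on each side, this shift between libraries was not tested.

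Abundant models were few but ranked among the highest transcripts of the whole table. Of the 1338 transcripts with a mean of at least 100 TPM, 153 (11.4%) were missed intergenic models, as were 10 of the 100 highest. The 20 highest of them held 16.5% of the summed TPM of the missed models in replicate 1 and 24.5% in replicate 2, and 19 of the 20 were higher in replicate 2.

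The highest of all, MSTRG.47072.1 (mm10, chr2:35519632-35540829, plus strand), had 1906 TPM in replicate 1 and 3290 TPM in replicate 2 and ranked 7 among all transcripts. It spanned 21198 bp and ended 17437 bp before the start of Dab2ip, a Ras GTPase-activating protein gene, whose chromatin short-read levels were 7979, 8274 and 7903 normalized counts. The second, MSTRG.32750.1 (chr16:17222210-17222515, plus strand), was only 306 bp long and had 1056 and 2826 TPM, 8228 bp downstream of Rimbp3, which had 93.5, 107 and 116 normalized counts. Both were well above the level of nearly all transcripts, and both were higher in replicate 2.

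Next came MSTRG.13366.1 on chromosome 11, with 683 and 1476 TPM, 2384 bp beyond the end of the atypical cadherin gene Fat2 and on its opposite strand. MSTRG.27922.1 on chromosome 14, with 579 and 1506 TPM, lay 765376 bp from the nearest coding gene, the formin gene Diaph3. All models named here were chosen for high mean TPM, so their like levels say nothing about distance to genes. A pair on chromosome 2 lay upstream of Zc3h15, a zinc finger gene. In it, MSTRG.48600.1 had 630 and 1336 TPM over 328 bp and MSTRG.48601.1 had 747 and 1087 TPM over 37601 bp. MSTRG.49436.1, beside the olfactory receptor gene Olfr1305, had 623 and 1275 TPM, and its nearest expressed short-read entry was 158833 bp away with 0, 1.05 and 0 normalized counts. MSTRG.85910.1, 175313 bp downstream of the sorting nexin gene Snx19, had 606 and 1123 TPM. All 8 of these models were higher in replicate 2 than in replicate 1.

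The missed models were short. Their spans on the genome ran from 200 bp to 133264 bp, with a median of 808 bp (quartiles 385 and 1448 bp), beside medians of 1232 bp for covered intergenic models and 2002 bp for models at genes. A span of at most 500 bp was found for 32.3% and of at most 1 kb for 59.1%. The span includes introns, since the table gives no exons. A longer model has more bases that can touch a gene or a short-read entry, so the criteria can themselves favour short models. The part of this in the contrast of spans was not tested. Among classes of mean level, the median span was largest at 1 to 3 TPM, with 1034.5 bp. It was 949 bp below 1 TPM, 359 bp at 10 to 30 TPM and 798 bp at 100 TPM or more. Across models, span and TPM had a Spearman rho of -0.24 in replicate 1 and -0.23 in replicate 2, a description over models that share both libraries.

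**Figure D2:**
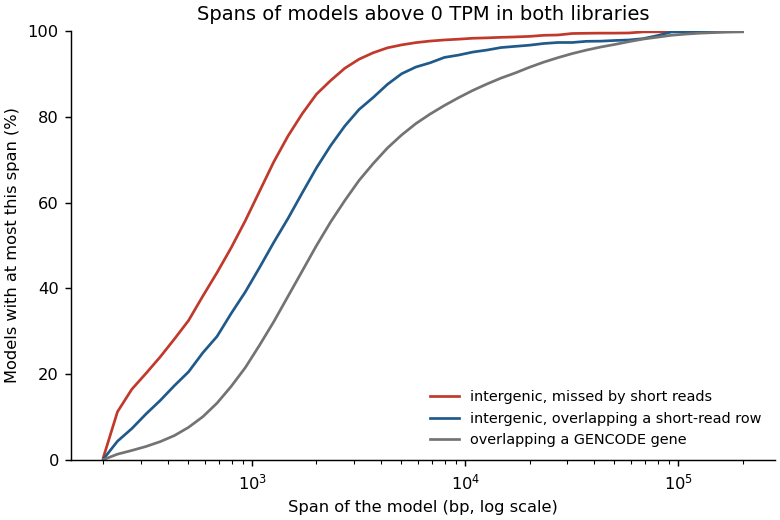
Cumulative share of models (y axis, percent) by span on the genome (x axis, bp, log scale) for models above 0 TPM in both libraries. The missed intergenic models (red, median 808 bp) lie left of the covered intergenic models (blue, median 1232 bp) and of the models overlapping a GENCODE gene (grey, median 2002 bp). The criteria exclude any overlap, which can itself favour short models.

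Only 94 models, in 57 assembled loci, spanned more than 10 kb, and their median mean level was 16.5 TPM. The longest, MSTRG.83180.1 (chr8:100116372-100249635, minus strand), covered 133264 bp with 4.91 TPM in replicate 1 and 36.5 TPM in replicate 2, upstream of the cadherin gene Cdh8 and 699901 bp from it. MSTRG.3614.1 on chromosome 1 covered 91412 bp with 4.92 and 11.2 TPM, 406335 bp upstream of Dsel. MSTRG.48332.1 on chromosome 2 covered 80282 bp with 24.6 and 7.99 TPM, 75507 bp downstream of Lnpk, a gene for an endoplasmic reticulum junction protein. The libraries disagreed in direction among these long models.

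Whether an intergenic model was missed varied with its span more than with its position. The share missed was 77.3% (75.6% to 79.0%) below 500 bp, 72.9% (70.9% to 74.8%) at 500 bp to 1 kb, 68.3% (66.3% to 70.2%) at 1 to 2 kb, 53.1% (50.3% to 56.0%) at 2 to 5 kb and 40.5% (34.0% to 47.3%) at 5 to 10 kb. A longer span has more bases at which it can touch a short-read entry, and the part of this in the shares was not tested. By mean level the share was 73.7% (72.2% to 75.2%) at 1 to 3 TPM and 60.5% (54.3% to 66.3%) at 100 TPM or more, but only 43.9% (32.6% to 55.9%) for the 66 models below 1 TPM. By distance to the nearest coding gene it stayed between 60.9% and 73.9% with no steady trend. By chromosome it ran from 61.8% on chromosome 12 to 75.4% on chromosome 18.

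**Figure D3:**
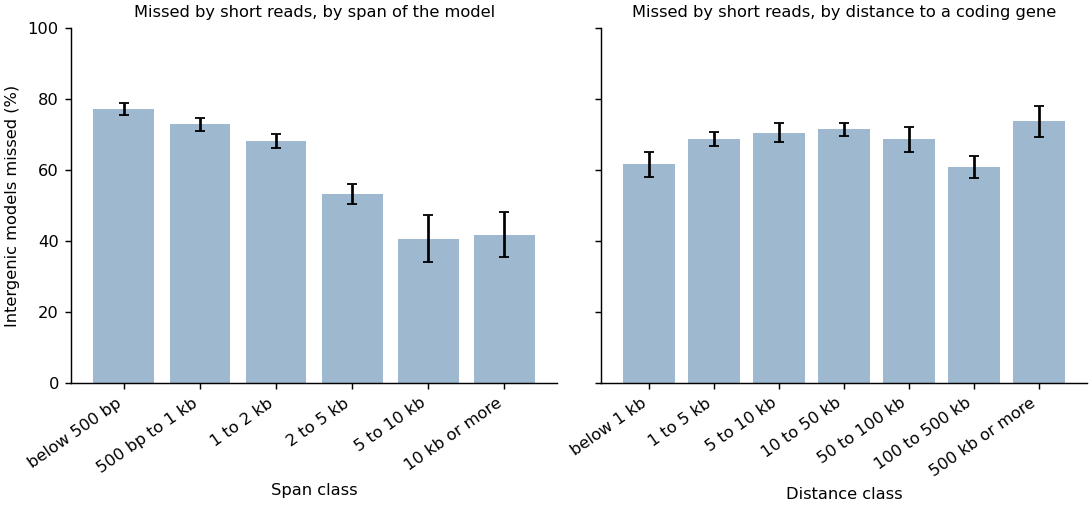
Share of intergenic long-read models missed by short reads (y axis, percent, with Wilson 95% intervals) by span of the model (left) and by distance to the nearest coding gene (right). The share falls from 77.3% below 500 bp to 41.6% at 10 kb or more, while over distance it stays between 60.9% and 73.9%.

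On the listed strands, 3030 models were on plus and 2478 on minus, so 55.0% were on plus (53.7% to 56.3%), beside 53.3% of covered intergenic models and 53.5% of models at genes. The direct cDNA kit does not preserve the original strand, which the authors could infer for part of the reads from primer sequences. The strand of a model here is the one the assembler listed. Of the ERCC spike-in RNA, which is of known strand, 0.405% of TPM in replicate 1 and 0.355% in replicate 2 was listed on the wrong strand. The standards were in the reference, so this share does not measure errors for models without a reference. The paper reports that a large part of the long reads mapped to the incorrect strand. It also reports that many long-read transcripts were assembled opposite to the reference. Strand errors were not measured for the models, which limits every strand comparison given here. A member on the opposite strand overlapped 149 of the models (2.71%).

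Fewer models had a neighbour of their class than stood alone. Chained wherever the gap was at most 10 kb, they formed 3999 groups, of which 3099 held 1 model and 70 held 5 or more, and 2409 models (43.7%, 42.4% to 45.1%) had a partner. The covered intergenic models had a partner of their own class in 54.2% of cases, and the models at genes in 85.7%. These shares also depend on class size, with 2553 covered models and 46443 at genes beside 5508 missed, and this was not adjusted for. True overlap was rare, with 232 of the models (4.21%) overlapping another. In the 900 windows of at least 2 models, 947 of 1509 neighbouring pairs (62.8%, 60.3% to 65.2%) were on the same listed strand, beside 50.5% if strands were drawn independently at the shares above, and 475 windows held a single strand. In the covered class 62.5% of neighbouring pairs shared a strand. The pairs of missed models include models of the same assembled locus, which share a strand, and 46 loci held at least 2 models. Pairs of the same window are also not independent. The independent draw takes neither into account, so the contrast with it was not tested.

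**Figure D4:**
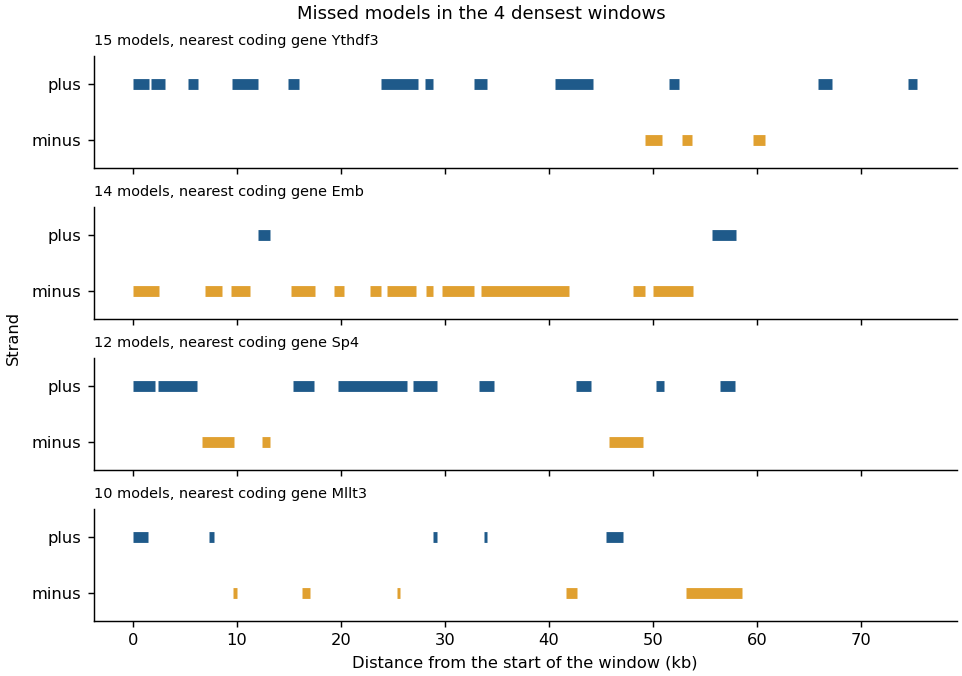
Positions of the missed models in the 4 windows with the most models, as distance from the start of the window (x axis, kb) and listed strand (y axis, blue for plus, orange for minus). The first 3 windows are dominated by 1 strand, with 12 of 15, 12 of 14 and 9 of 12 models, and the last has 5 on each.

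The window with the most models (chr3:16740042-16815467) held 15 over 75426 bp, of which 12 were on plus. The nearest coding gene, the m6A reader gene Ythdf3, was at least 523005 bp away. Models of this window ran from 0.540 to 5.55 TPM in replicate 1 and from 0.167 to 5.99 TPM in replicate 2. Their sums were 45.3 and 42.6 TPM. A second window (chr13:117370828-117428811) held 14 models, 12 on minus, at 96413 bp or more from Emb, an immunoglobulin superfamily gene, with sums of 35.6 and 64.3 TPM. The next (chr12:118304185-118362043) held 12 models, 9 on plus, beginning 2745 bp from Sp4, a transcription factor gene, with sums of 29.2 and 50.0 TPM. The fourth (chr4:87706492-87765016), near Mllt3, held 10 models, 5 on each strand, with sums of 19.3 and 38.6 TPM, and tied in number with a window beside the defensin gene Defa21. No model in these 4 windows exceeded 8.72 TPM in either library. These 4 windows were thus built of weakly covered pieces rather than of abundant transcripts, unlike some other crowded windows described below.

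The median distance to the nearest GENCODE coding gene was 11149.5 bp (quartiles 3405 and 49233 bp), nearly the same as the 10656 bp of covered intergenic models. Within 1 kb lay 471 models (8.55%), within 5 kb 1813 (32.9%) and within 10 kb 2621 (47.6%), while 295 lay more than 500 kb away and 96 more than 1 Mb. Of the 1813 within 5 kb, 1172 (64.6%) lay downstream of the gene and 641 upstream, while over all models 55.1% lay downstream. The largest class was downstream on the same strand, with 778 (42.9%), followed by downstream on the opposite strand with 394, upstream on the opposite strand with 353 and upstream on the same strand with 288. Covered intergenic models within 5 kb also lay downstream on the same strand in 42.9% of cases.

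**Figure D5:**
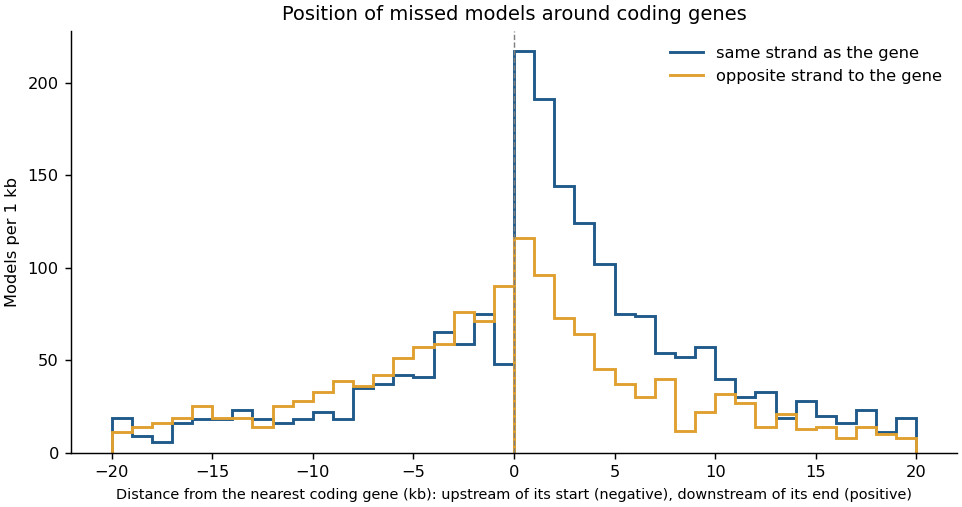
Number of missed models per 1 kb (y axis) by distance from the nearest coding gene (x axis, kb, negative upstream of the gene's start and positive downstream of its end), for models on the same (blue) and opposite (orange) strand. Same-strand models fall from 217 in the first kb downstream to 57 in the tenth, and in the first kb upstream 90 are on the opposite strand and 48 on the same.

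The plot of position around coding genes shows a decline away from gene ends. Downstream on the same strand there were 217 models in the first kb, 102 in the fifth and 57 in the tenth. In the first kb upstream the order of strands was turned, with 90 models on the opposite and 48 on the same strand. Same-strand models that run on into the gene were removed by the criteria, and the part of this was not tested. In 12 cases the model abutted the annotated end of the gene with no base between them, all of them on the strand of the gene. Examples were the models beyond Mapkapk2, a stress-activated kinase gene, with 3.26 TPM in replicate 1 and 4.82 TPM in replicate 2, and beyond P4ha1, a collagen prolyl hydroxylase gene, with 3.05 and 2.32 TPM. The model beyond Tmpo, a nuclear lamina gene, had 1.26 and 5.68 TPM, and the model beyond Actr2, an actin-nucleating subunit gene, had 5.80 and 9.03 TPM. The genes themselves were well expressed, with 4856 to 34003 normalized counts over the 3 chromatin libraries. Upstream on the same strand, the closest models were 24 bp from N4bp2l2, with 32.2 and 20.1 TPM, 30 bp from Tcirg1, a proton pump subunit gene, with 1.56 and 2.08 TPM, and 51 bp from the kinase gene Akt2, with 1.01 and 2.92 TPM.

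More abundant models lay farther from coding genes. The median distance to a coding gene was 9276 bp for models at a mean of 1 to 3 TPM, 8918 bp at 3 to 10, 19341 bp at 10 to 30, 29929 bp at 30 to 100 and 44006 bp at 100 TPM or more. In the covered class the median at 100 TPM or more was 15762.5 bp. Across models the Spearman rho of distance and TPM was 0.17 in replicate 1 and 0.13 in replicate 2. The farthest model, MSTRG.27913.1 on chromosome 14, lay 2156402 bp from Olfm4 with 0.815 and 2.08 TPM. Another, MSTRG.3389.1 on chromosome 1, lay 2140186 bp from the cadherin gene Cdh20 with 23.5 and 33.6 TPM.

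The coding genes beside the models were expressed above the general level. The 3321 genes nearest to a model included 3082 with a short-read level, and their median in chromatin was 1334 normalized counts, beside 309 over all autosomal coding genes and 2398 beside covered intergenic models. Genes within 5 kb of a model had a median of 1848, and those beyond 100 kb a median of 287. At 0 in the chromatin libraries were 9.38% of the neighbours against 19.4% of all coding genes. The nearest expressed short-read entry of any kind was a median of 6569 bp away, and 760 models (13.8%) had one within 1 kb.

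Cardiac genes stood beside 47 of the models. Of a list of 63 genes of the heart, 22 were nearest to at least 1 model, beside 3321 of all 20807 autosomal coding genes. The list was nearest to 0.853% of the missed and 1.76% of the covered intergenic models, and makes up 0.303% of autosomal coding genes. Shares of models and of genes are unlike measures, since a gene with several models counts several times. Flank length and expression of the genes were not accounted for, and enrichment was not tested. Among transcription factors, Mef2c had the most abundant neighbour, MSTRG.24024.1, 84709 bp upstream on the same strand, with 249 TPM in replicate 1 and 349 TPM in replicate 2. Isl1, a factor of cardiac progenitors, was the nearest coding gene of 6 models at 330789 bp or more, of which MSTRG.25119.1 had 159 and 399 TPM, while Isl1 itself was at 0 in all 3 chromatin libraries. Nkx2-5, a core cardiac factor, had a model of 10097 bp that began 757 bp past its end on the same strand, with 6.40 and 6.64 TPM. The orphan receptor gene Nr2f2 was nearest to a model 397727 bp away with 99.2 and 103 TPM.

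Among sarcomere genes, Nebl, for the Z-disc protein nebulette, lay 13084 bp from MSTRG.46151.1, with 76.0 and 161 TPM. Upstream of Tpm1, for tropomyosin, MSTRG.87912.1 lay 882 bp away with 0.412 and 15.3 TPM, a difference beyond 10 fold between libraries. The stretch-responsive gene Ankrd1 was nearest to 6 models, all upstream, which ran from 0.397 to 6.78 TPM in replicate 1 and from 0.211 to 4.45 TPM in replicate 2. The atrial light chain gene Myl7 had a model 7898 bp downstream with 6.78 and 9.59 TPM. Among ion channel genes, Hcn4, the pacemaker channel, had MSTRG.87259.1 37781 bp upstream with 41.5 and 64.9 TPM, a model that overlaps the RefSeq gene Rec114, and Kcnj3 had a model 469980 bp away with 137 and 73.4 TPM. Models beside cardiac genes thus covered a wide range of levels, and those with a mean of at least 100 TPM all lay 13084 bp or more from the gene.

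Other annotations reached some of the models. A RefSeq gene overlapped 311 of them (5.65%), through 263 genes of which 124 were lncRNAs, 81 protein coding and 49 pseudogenes, against 31.5% of the covered intergenic models. The short-read entries include RefSeq transcripts, and a model overlapping one above 0 in chromatin counted as covered by the criteria. The part of this in the contrast was not tested. Reference transcripts listed in the same long-read table overlapped 79. A short-read entry at 0 in every chromatin library overlapped 76, so the remaining 5432 lay outside all entries of the short-read table, and 4 overlapped an entry with nucleoplasm reads only.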

How the data were processed

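HL1 chromatin RNA was measured in 3 short-read and 2 long-read libraries, and nucleoplasm RNA in 3 short-read libraries, grouped by sample title. The authors aligned long reads to mm10 with minimap2, assembled them with StringTie in long-read mode without strand information, merged both replicates and deposited TPM re-estimated per replicate on the merged set. Short reads were aligned with HISAT2 2.1.0, and the authors deposited gene signal as counts divided by DESeq2 size factors, called normalized counts here, with totals of 88255992 to 115880635 per library. Read totals of the long-read libraries are not in the table, and 88345 and 93264 transcripts were above 0 in them.

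Overlap meant at least 1 shared base between spans. Distances run from edge to edge. Short-read entries were assigned to a GENCODE gene where they shared at least 0.5 of the joint span. Interval functions were tested on simulated intervals. Python 3.11.15, numpy 2.4.6, pandas 2.3.3 and scipy 1.17.1 were used. No test was made, since there are 2 long-read libraries of 1 condition, and models are not replicates. Named models were the 8 of highest mean TPM, the 4 longest and those of the 4 windows with the most models. They also included the 4 nearest on each side of a coding gene on its strand and the 4 farthest. Models beside a list of cardiac genes were added, and examples of all these are given. The criteria, members and lists were chosen with earlier results of these data known. Alternatives changed the TPM minimum, libraries, overlap and annotation. All sample columns could be mapped to a title.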

Additional observations from a re-analysis of the deposited data

Results flagged for a closer look

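Although they overlapped no short-read entry with chromatin reads, 4 of the 5508 models overlapped an entry with reads in nucleoplasm, a fraction that the criteria did not use. The entry near Ring1 had 2.90 normalized counts in nucleoplasm replicate 3 and 0 in the other 5 short-read libraries, over a model with 3.86 and 2.08 TPM. The entry near Cd14 had 2.40 normalized counts in replicate 2 only, over a model with 3.47 and 3.87 TPM. The entry near Ap2a1 had 5.99 in replicate 2 and 12.3 in replicate 3, over a model on the other strand with 90.1 and 26.9 TPM. The entry near Klf13 had 5.99 in replicate 2 only, over a model with 15.7 and 11.6 TPM. All 4 were at 0 in nucleoplasm replicate 1.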

How the results depend on the processing

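No paired analysis was possible because no test between groups was made. Of 138 values recomputed under alternatives, 98 stayed within the counting interval, 1.5 times the count, the spread of both libraries' medians or 0.05 for agreement measures, and 40 did not.

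Requiring 1 TPM in both libraries gave medians of 4.49 and 4.13 TPM, an r of 0.781, a rho of 0.592, an SD of 0.354, a span of 702 bp and 37.3% with a partner. Both minimums select on the values whose agreement is measured, so higher agreement can follow from the selection, and the part of this was not tested. Requiring 1-fold coverage in both, chosen after seeing the data, gave 2739 models, medians of 7.67 and 6.94 TPM, an r of 0.842, a rho of 0.754, an SD of 0.298, a span of 580 bp, 31.4% with a partner and a distance of 13733 bp. Counting overlap on the same strand only gave 24139 models, 90.2% missed, a span of 1601 bp, 52.5% on plus, 61.5% with a partner, an r of 0.523 and a distance of 0 bp, since such models can lie inside genes of the other strand. A margin of 1 kb gave 65.6% missed, 41.5% with a partner and 14601.5 bp, and 1 model per locus 41.4% with a partner. A pseudocount of 1 gave an r of 0.735 and an SD of 0.346, and a pseudocount of 0.1 an SD of 0.505. Windows of 1 kb and 50 kb gave 14.2% and 62.1% with a partner, and same-strand genes a distance of 29736.5 bp.

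Leaving out 1 library gave 5518 to 9063 models, the highest without long-read replicate 1 and 7691 without replicate 2. The distance ran from 11142 to 13698 bp, the span from 721 to 809 bp, the share with a partner from 43.7% to 47.7%, the median of replicate 2 from 2.84 to 3.49 TPM, that of replicate 1 from 3.64 to 3.93 TPM, and the share missed from 68.5% to 68.6%.

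The repeat-masked share of the spans was not run, since no genome sequence was used here. Depth limits these results: at a median coverage under 2 fold, absence from a library was not distinguishable from sampling, and absence from the short-read table cannot be told apart from differences in ribosomal depletion, read length or assembly.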

Other observations

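Some windows with many models held abundant isoforms of 1 locus instead of separate weak pieces. On chromosome 1 (chr1:149520498-149588656), 8 models of a single assembled locus, all on minus, had a median span of 62644 bp and summed to 329 TPM in replicate 1 and 419 TPM in replicate 2, at 240962 bp or more from Pla2g4a, a phospholipase gene. A second locus on the same chromosome (chr1:148456813-148490721) held 7 models on plus with sums of 297 and 375 TPM, again with Pla2g4a as the nearest coding gene, at 1338897 bp or more. On chromosome 10 (chr10:45554814-45560465), 7 models of 5 loci within 5652 bp summed to 955 and 1517 TPM, 17364 bp or more from the ubiquitin ligase gene Hace1. The window beside Defa21 went the other way between libraries, with 91.2 TPM in replicate 1 and 28.2 TPM in replicate 2 over 10 models. These windows were picked after their values were seen.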
